A study of Mus musculus with 6 samples.

Results

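The laminins and integrins were the 38 protein-coding genes, of 30315 genes measured, whose symbols name a laminin chain (Lama, Lamb or Lamc with a number, 11 genes) or an integrin chain (Itga or Itgb with a number or letter, 27 genes). The values of 37 of them are described. Their RNA was measured by RNA-Seq in TECs, the tubular epithelial cells of the kidney, taken from C57BL/6 mice and kept as primary cultures, and the question was which genes change when the transcription factor SOX9 is knocked down in injured TECs. Of the 6 libraries, 3 came from cells given the siRNA siSox9, which targets Sox9 mRNA, and 3 from cells given siNC, the control siRNA. All 6 had the same injury, hypoxia/reoxygenation (H/R): cells at about 50% confluence received their siRNA, and 12 h later H/R began with hypoxia in 1% oxygen without glucose for 6 h, followed by reoxygenation in complete medium for 18 h. No library without H/R was among them, so the levels below are those of injured cells in culture. The labels do not say whether the libraries of a group came from separate cultures, and p-values therefore measure the spread between these libraries.

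Laminins are trimers of an alpha, a beta and a gamma chain that assemble into the sheet of the basement membrane on which an epithelium sits, and a trimer is named by the numbers of its chains. Integrins are pairs of an alpha and a beta chain in the cell membrane, and the alpha chain largely sets which ligand is bound: alpha3, alpha6 and alpha7 bind laminins, alpha1 and alpha2 bind collagens, and alpha5 and alphaV bind ligands with the RGD tripeptide such as fibronectin. In kidney tubules, laminin-511 is the main mature basement membrane laminin, and integrin chains hold TECs to it during injury and repair.

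Sox9 itself was at 8.93, 8.61 and 9.07 FPKM in the siSox9 libraries and at 25.7, 26.5 and 25.6 FPKM in the siNC libraries. The unit, FPKM, corrects a gene's fragment count for exon length and library size, so that levels can be set side by side between genes. The siSox9 mean was 34.2% of the siNC mean, with a log2 fold change of -1.45 (SE 0.0335, adjusted p = 7.03e-06). Differences are given as siSox9 minus siNC on the log2(FPKM + 1) scale, which understates the change of genes at low levels, and were tested with limma over 12009 genes whose mean reached 1 FPKM, with a Benjamini-Hochberg adjusted p under 0.05 as the threshold. For a single gene, 3 libraries against 3 cannot give a two-sided exact permutation p under 0.1, which Sox9 reached. The libraries held 23893201 to 25725740 reads, so that 1 read on 1 kb of exons was worth 0.0389 to 0.0419 FPKM. As a check of the cell type, the 13 tubule markers summed to 4288 to 4449 FPKM with siSox9 and 4081 to 4290 FPKM with siNC, of which 77.3% to 78.8% came from Krt8 and Krt18, keratins of simple epithelia in general. Of the markers closer to the kidney tubule, Cdh16 was at 98.1 to 130 FPKM, Pax8 at 13.9 to 15.9 FPKM, Pax2 at 9.72 to 12.8 FPKM and Lrp2 at 2.06 to 2.58 FPKM, while Slc34a1, Slc12a1 and Aqp2, which define tubule segments, were at or near 0.

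Of the 37 laminin and integrin genes described, 21 reached a mean of 1 FPKM and were tested, and 12 of these passed the threshold (57.1%), compared with 30.4% of all genes tested. By direction, 8 members were higher and 4 lower, against 12.8% and 17.6% of all genes. The 8 that rose were Lama5, Lamb1, Lamb3, Itga3, Itga7, Itgb1, Itgb5 and Itgb6, and the 4 that fell were Itga5, Itgb3, Itga6 and Itga2. The groups of libraries did not overlap for 14 of the 21, against 46.3% of all genes. The median log2 fold change of the 21 was -0.006, and that of all genes was -0.014. With each library centred on its median gene, 8 members were higher and 2 lower, and over all genes 1959 were higher and 1765 lower in place of 1532 and 2118. Without siSox9 replicate 2, siNC replicate 2 or siNC replicate 3, 8 members passed. In these 3 fits 2431, 2837 and 2599 of all genes passed, in place of 3650. Most changes were small: 82.1% of all genes lay within 0.25 of 0 on the log2 scale, and the members outside this range were Itga5, Itgb3, Itgb5 and Itga7.

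**Figure D1:**
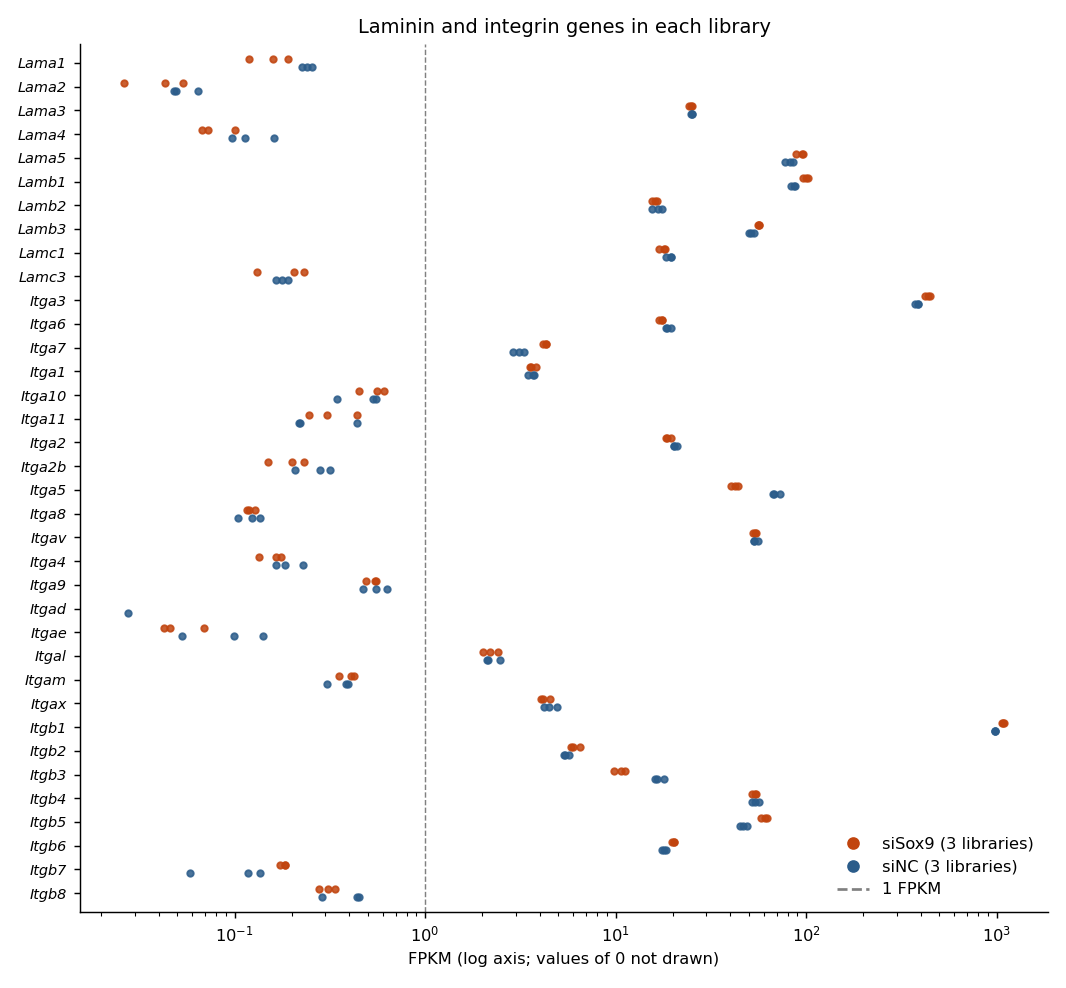
FPKM of each laminin and integrin gene in each of the 6 libraries on a log axis, with siSox9 in orange and siNC in blue; values of 0 are not drawn. Itgb1 and Itga3 lie at the top of the scale, and Itga5 and Itgb3 show the widest gaps between the groups among the tested genes. Of the 37 genes, 16 have means below 1 FPKM (dashed line), of which 1 was at 0 in all libraries and is not drawn.

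The promoters of 4 members are shown, those of Lama5 and Lamb1, which are chains of 1 laminin and rose together, and those of Itga5 and Itgb5, which are integrin chains that moved in opposite directions. Each is a RefSeq window of 300 bases on GRCm38.p6, 250 before and 50 after the start, written 5′ to 3′ on the gene's strand. Capitals mark matches to 2 motifs, the GC box GGGCGG and the EGR motif GCGNGGGCG, on either strand.
Lama5 (chr2:180225810-180226109, minus strand): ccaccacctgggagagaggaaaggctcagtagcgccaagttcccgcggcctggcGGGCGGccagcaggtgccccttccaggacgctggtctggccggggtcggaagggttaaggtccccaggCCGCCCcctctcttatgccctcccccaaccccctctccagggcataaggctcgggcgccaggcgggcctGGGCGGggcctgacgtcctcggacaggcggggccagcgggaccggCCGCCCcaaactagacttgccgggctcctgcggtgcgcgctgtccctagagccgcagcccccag
Lamb1 (chr12:31265043-31265342, plus strand): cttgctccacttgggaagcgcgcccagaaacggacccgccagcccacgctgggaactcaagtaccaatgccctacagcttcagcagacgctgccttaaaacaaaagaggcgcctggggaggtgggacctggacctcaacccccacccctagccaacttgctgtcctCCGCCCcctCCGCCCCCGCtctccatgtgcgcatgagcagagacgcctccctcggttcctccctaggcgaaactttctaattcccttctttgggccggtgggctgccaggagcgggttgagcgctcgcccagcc
Itga5 (chr15:103366742-103367041, minus strand): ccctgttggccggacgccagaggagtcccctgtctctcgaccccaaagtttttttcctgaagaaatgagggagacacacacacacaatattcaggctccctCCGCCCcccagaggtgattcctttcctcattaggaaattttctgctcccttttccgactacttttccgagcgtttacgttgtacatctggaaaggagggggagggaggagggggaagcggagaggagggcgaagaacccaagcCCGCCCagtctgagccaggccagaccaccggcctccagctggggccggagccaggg
Itgb5 (chr16:33829415-33829714, plus strand): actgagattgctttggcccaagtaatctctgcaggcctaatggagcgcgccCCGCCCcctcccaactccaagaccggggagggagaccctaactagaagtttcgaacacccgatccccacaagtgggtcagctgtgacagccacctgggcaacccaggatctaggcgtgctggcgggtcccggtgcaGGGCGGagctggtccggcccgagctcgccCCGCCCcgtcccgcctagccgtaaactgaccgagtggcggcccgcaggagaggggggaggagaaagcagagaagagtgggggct
The GC box is the usual site of SP family factors, and it was found 4 times in the Lama5 window, 3 times in that of Itgb5, and 2 times each in those of Lamb1 and Itga5. One of the matches of Lamb1, at -75 from the start, overlapped the EGR match at -74. The GC content of the windows was 72.7% for Lama5, 65.7% for Itgb5, 63.7% for Lamb1 and 58.7% for Itga5. The SOX motifs ACAAAG and ACAATG were in none of these 4 windows. Over the 26 windows of the 23 members with one, ACAAAG was in 2 (Itga3 and Itgb1) and ACAATG in 1 (Itga8), while 18.7% and 12.6% of the 32851 promoter windows of the genome held them. The GC box was in 12 of the 26 and in 35.7% of all windows. The EGR motif was in 2 of the 26 (Lamb1 and Itga11) and in 5.55% of all, the AP-1 motif TGANTCA in 3 and in 7.81%, the TEAD motif GGAATG in 3 and in 14.7%, and the TATA box TATAAA in 0 and in 13.6%. A match is a description of the letters in these windows and does not say that a factor bound there.

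Among the laminins described, alpha5 and beta1 had the highest levels, which with gamma1 form laminin-511, followed by beta3, which with alpha3 is part of the laminin that anchors many epithelia. Of the 6 laminin genes tested, Lama5, Lamb1 and Lamb3 rose, none fell, and Lama3, Lamb2 and Lamc1 did not pass, with a median log2 fold change of 0.057. The share that passed was 50.0%, against 30.4% of all genes. The summed FPKM of the 10 laminins was 299 to 315 with siSox9 and 272 to 289 with siNC.

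For laminin-511, Lamb1, the beta1 chain, was at 102, 100.1 and 96.5 FPKM in the siSox9 libraries and at 87.2, 83.5 and 86.5 FPKM in the siNC libraries. The lowest siSox9 library was above the highest siNC library, and Lamb1 rose to 116% of its siNC mean (log2 fold change 0.21, SE 0.0336, adjusted p = 0.00365). Lama5, the alpha5 chain, was at 96.2, 95.7 and 88.5 FPKM with siSox9 and at 85.4, 77.3 and 82.1 FPKM with siNC. It rose to 115% of the siNC mean (log2 fold change 0.19, SE 0.0487, adjusted p = 0.0228), again with no overlap between the groups. Lamc1, the gamma1 chain found in most laminins, was at 18.2, 17.9 and 17.0 FPKM with siSox9 and at 19.6, 18.4 and 19.5 FPKM with siNC. Its groups did not overlap either, with siSox9 on the low side, and its difference of -0.11 (95% confidence interval -0.20 to -0.01) did not pass (adjusted p = 0.0892). The ratio of Lamb1 to Lamc1, both in FPKM, was 5.61, 5.58 and 5.69 with siSox9 and 4.46, 4.54 and 4.45 with siNC, while the ratio of Lamb1 to Lama5 overlapped between the groups, with means of 1.07 and 1.05. The call of Lama5 was lost without siSox9 replicate 1 (adjusted p = 0.0775), siSox9 replicate 2 (0.0825), siNC replicate 2 (0.0606) or siNC replicate 3 (0.0605). It was also lost with all genes kept (adjusted p = 0.0699). Lamb2, the beta chain that replaces beta1 in laminin-521 of the glomerulus, was at 16.5, 16.1 and 15.6 FPKM with siSox9 and at 17.6, 15.6 and 16.7 FPKM with siNC. Its groups overlapped, and its difference was -0.05 (95% confidence interval -0.16 to 0.07, adjusted p = 0.513).

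Lamb3, the beta3 chain, was at 56.5, 56.6 and 56.1 FPKM with siSox9 and at 53.5, 51.1 and 50.1 FPKM with siNC. It rose to 109% of its siNC mean with no overlap between the groups (log2 fold change 0.13, SE 0.0323, adjusted p = 0.0238). Lama3, the alpha3 chain that assembles with beta3, was at 24.4, 24.7 and 25.2 FPKM with siSox9 and at 24.7, 25.1 and 25.2 FPKM with siNC. Its groups overlapped, and its difference was -0.01, with a 95% confidence interval from -0.08 to 0.05 (adjusted p = 0.754). The FPKM ratio of Lamb3 to Lama3 was 2.28 ± 0.0499 with siSox9 and 2.06 ± 0.0884 with siNC (SD, n = 3 each), and these ratios did not overlap between the groups. The call of Lamb3 was lost without any 1 library other than siNC replicate 1 (adjusted p from 0.0531 to 0.0838) and with TPM in place of FPKM (0.0926).

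**Figure D2:**
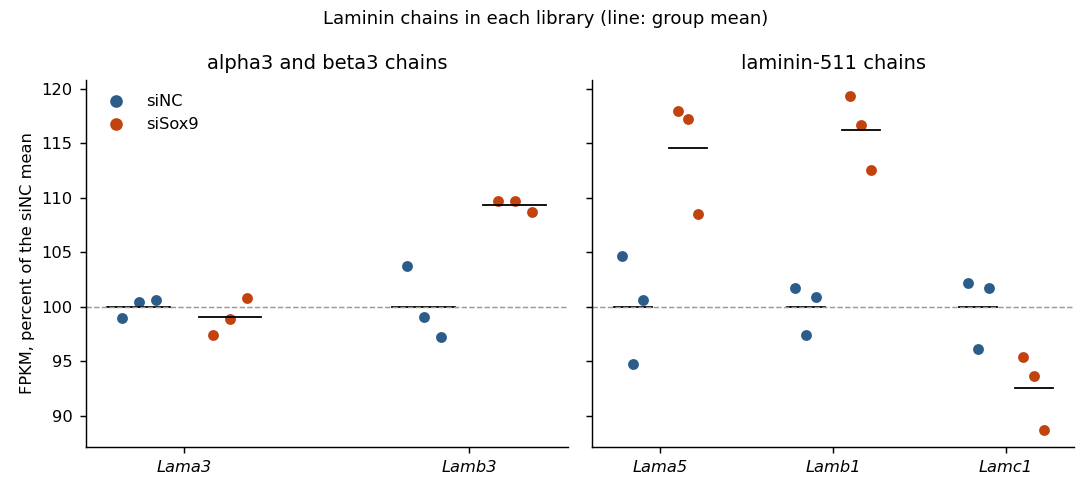
FPKM of the alpha3 and beta3 laminin chains (left) and of the 3 chains of laminin-511 (right) in each library as a percentage of the gene's siNC mean, with blue points for siNC, orange points for siSox9 and a black line at each group's mean; the axis does not start at 0. Lamb3 lies above 100% with siSox9 while Lama3 stays around it, and Lama5 and Lamb1 lie above 100% while Lamc1 lies below.

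The other 4 laminin chains described were barely expressed. Lama2 (the chain of muscle laminins), Lama4 (the chain of vascular laminins) and Lamc3 lay between 0.0262 and 0.233 FPKM, or 11 to 48 reads a library, with overlapping groups. Lama1, the alpha chain of laminin-111 of the embryonic kidney, was at 0.159, 0.190 and 0.119 FPKM with siSox9 and at 0.254, 0.226 and 0.241 FPKM with siNC, so that the siSox9 libraries were the lower ones. None of these 4 genes was tested.

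Of the 15 integrin genes tested, 5 rose, 4 fell and 6 did not pass, with a median log2 fold change of -0.01. The share that passed was 60.0%, against 30.4% of all genes. The largest differences were in receptors for RGD ligands. Itga5 pairs with beta1 to form the main fibronectin receptor. It was at 43.9, 42.3 and 40.5 FPKM in the siSox9 libraries and at 73.0, 68.1 and 66.8 FPKM in the siNC libraries. The highest siSox9 library was well under the lowest siNC library, and Itga5 fell to 61.0% of its siNC mean, from 69.3 ± 3.30 to 42.2 ± 1.70 FPKM (SD, n = 3 each), with a log2 fold change of -0.70 (SE 0.0453, 95% confidence interval -0.81 to -0.59, adjusted p = 0.000116). Counting Itga5 itself, 94 of the 12009 genes tested had a log2 fold change as low or lower. Its gene is on the minus strand of chromosome 15 from 103344286 to 103366763 in GRCm38.

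Itgb3 encodes the beta chain that pairs with alphaV in the vitronectin receptor and with the platelet chain alphaIIb. It was at 11.2, 10.6 and 9.80 FPKM with siSox9 and at 18.0, 16.1 and 16.4 FPKM with siNC, from 1382 to 1699 and from 2296 to 2641 reads. The groups stood apart, and Itgb3 fell to 62.5% of its siNC mean (log2 fold change -0.63, SE 0.059, 95% confidence interval -0.77 to -0.49, adjusted p = 0.000461), a change as low or lower than which 149 genes had. The gene is on the plus strand of chromosome 11 from 104608000 to 104670476. Itga2b, the platelet partner of beta3, was at 0.150 to 0.318 FPKM with overlapping groups. The 5 megakaryocyte and platelet markers summed to 113 to 131 FPKM with siSox9 and 135 to 156 FPKM with siNC. Nearly all of it was from Ppbp, a chemokine that other cells also make and that fell (log2 fold change -0.30, adjusted p = 0.0206). Pf4 was at 2.18 to 3.18 FPKM and did not pass (log2 fold change -0.02, adjusted p = 0.903). Gp1ba was at 0.108 to 0.319 FPKM, and Gp5 and Gp9 were at or near 0.

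Itgb5, the other vitronectin receptor chain that pairs with alphaV, went the other way. It was at 61.0, 62.3 and 57.9 FPKM with siSox9 and at 49.2, 44.8 and 46.6 FPKM with siNC. Each siSox9 library was above each siNC library, and Itgb5 rose to 129% of its siNC mean (log2 fold change 0.36, SE 0.0444, 95% confidence interval 0.25 to 0.46, adjusted p = 0.00138). The FPKM ratio of Itgb5 to Itgb3 was 5.45, 5.87 and 5.90 with siSox9 and 2.73, 2.78 and 2.84 with siNC. Itgb6, the epithelial chain that pairs with alphaV and activates latent TGF-beta, was at 19.8, 20.4 and 20.2 FPKM with siSox9 and at 18.0, 18.3 and 17.5 FPKM with siNC. It rose to 112% without overlap of the groups (log2 fold change 0.16, SE 0.0319, adjusted p = 0.0103). Itgav, the alpha chain that these 3 beta chains share, was at 53.7, 54.3 and 52.4 FPKM with siSox9 and at 53.4, 53.1 and 55.9 FPKM with siNC. Its groups overlapped, and its difference was -0.02, with a 95% confidence interval from -0.09 to 0.06 (adjusted p = 0.724). Itgb8, a further partner of alphaV, was at 0.276 to 0.452 FPKM, and Itga8, which binds nephronectin, at 0.104 to 0.137 FPKM, both with overlapping groups and not tested.

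**Figure D3:**
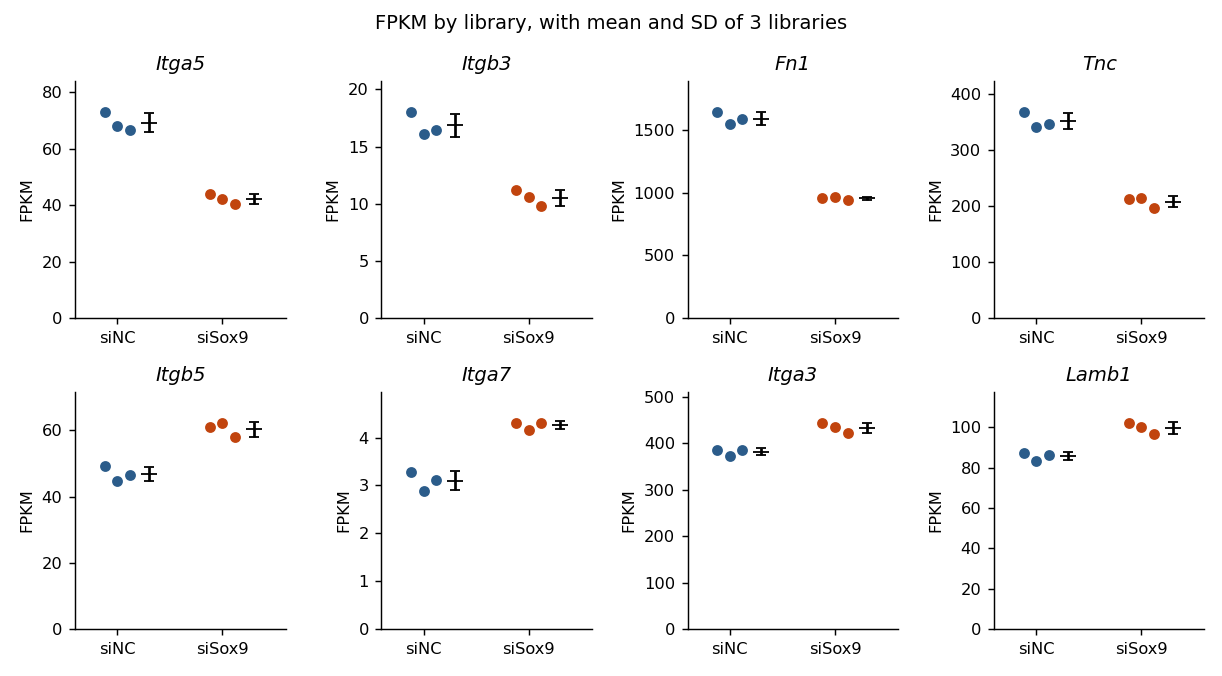
FPKM in each library of 6 laminin or integrin genes and of the ligands Fn1 and Tnc, with siNC in blue, siSox9 in orange and the mean and SD of 3 libraries beside the points; each vertical axis starts at 0. Itga5, Itgb3, Fn1 and Tnc are lower in all 3 siSox9 libraries, and Itgb5, Itga7, Itga3 and Lamb1 are higher in all 3.

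All 3 alpha chains listed here as laminin receptors passed the threshold, Itga3 and Itga7 higher and Itga6 lower. Of all genes tested, 30.4% passed. Itga3, whose pair with beta1 is the main laminin-511 receptor of tubule cells, was at 445, 435 and 423 FPKM with siSox9 and at 387, 373 and 386 FPKM with siNC. It rose to 114% with no overlap (log2 fold change 0.18, SE 0.0327, adjusted p = 0.00619), and its call was lost with quantile-normalized values (adjusted p = 0.0524). Itga7, best known as the laminin receptor of muscle, was at 4.31, 4.16 and 4.31 FPKM with siSox9 and at 3.29, 2.89 and 3.12 FPKM with siNC, or 834 to 897 and 565 to 661 reads. It rose to 137% of its siNC mean with groups apart (log2 fold change 0.36, SE 0.0502, adjusted p = 0.00224), and it lies on the plus strand of chromosome 10 from 128933818 to 128958282. Itga6, which pairs with beta4 in hemidesmosomes and also with beta1, was at 17.6, 17.5 and 16.9 FPKM with siSox9 and at 19.5, 18.5 and 18.7 FPKM with siNC. It fell to 91.8% with a small gap between the groups (log2 fold change -0.12, SE 0.0343, adjusted p = 0.0388). With any 1 library left out it no longer passed (adjusted p from 0.057 to 0.104), nor did it on the median-centred scale (0.0765) or as TPM (0.324). In all, Itga6 did not pass in 12 of the 15 alternatives to the main fit. Itgb4, the hemidesmosome beta chain, was at 54.6, 54.2 and 52.2 FPKM with siSox9 and at 56.3, 51.7 and 53.7 FPKM with siNC. Its groups overlapped, and its difference was -0.01 (95% confidence interval -0.10 to 0.08, adjusted p = 0.92), although 7.7% of its exon bases are shared with a gene on the opposite strand, whose reads cannot be told apart where the counting did not use strand.

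Itgb1 encodes the beta chain that pairs with alpha1 to alpha11 and alphaV, and it was the 19th of all genes by mean FPKM. It was at 1071, 1081 and 1099 FPKM with siSox9 and at 982, 978 and 979 FPKM with siNC. It rose to 111% of its siNC mean with no overlap of the groups (log2 fold change 0.14, SE 0.0291, adjusted p = 0.00988), but not past the threshold with quantile-normalized values (adjusted p = 0.0625) or with all genes kept (0.208). Of the summed beta chain FPKM, Itgb1 held 87.7% with siSox9 and 87.4% with siNC, and these shares overlapped. Of the summed alpha chain FPKM, Itga3 held 74.5% ± 0.130 with siSox9 and 68.2% ± 0.378 with siNC, and Itga5 7.25% ± 0.119 and 12.4% ± 0.482 (SD, n = 3 each). The ratio of Itga3 to Itga5 was 10.1, 10.3 and 10.4 with siSox9 and 5.30, 5.48 and 5.79 with siNC. The summed FPKM of all 27 integrins was 1814 to 1819 with siSox9 and 1663 to 1700 with siNC.

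**Figure D4:**
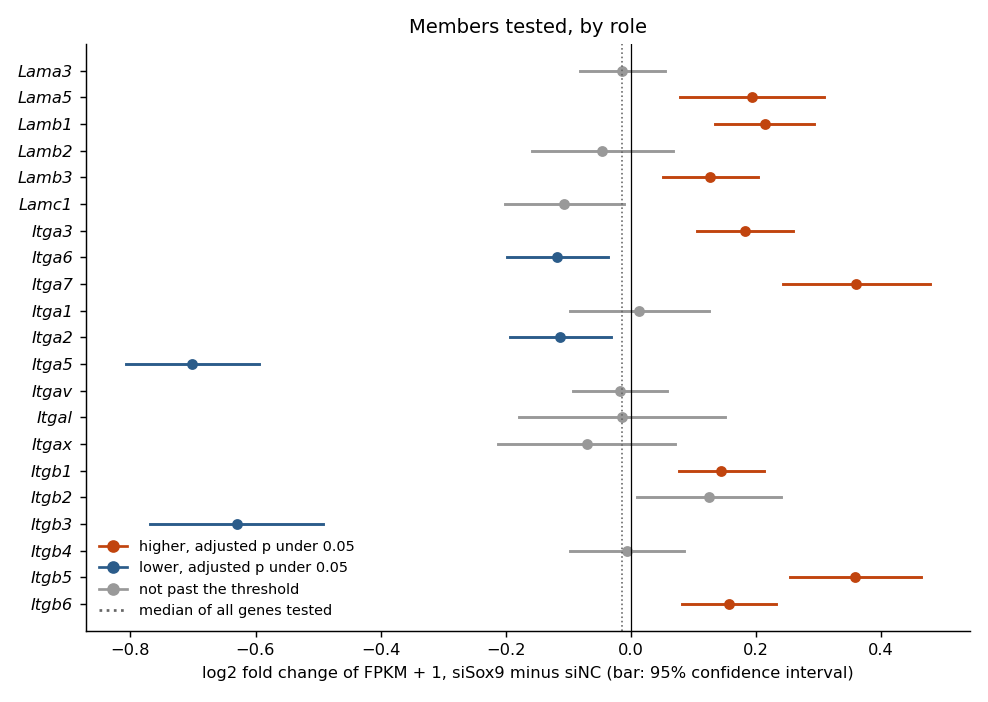
Log2 fold change of FPKM + 1, siSox9 minus siNC, of the 21 laminin and integrin genes tested, with 95% confidence intervals as bars; orange passed the threshold as higher, blue as lower, and grey did not pass. Itga5 at -0.70 and Itgb3 at -0.63 lie far to the left, Itga7 and Itgb5 at 0.36 farthest to the right, and the dotted line is the median of all genes tested.

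Of the collagen receptors, Itga2 was at 19.5, 18.4 and 18.7 FPKM with siSox9 and at 20.9, 20.2 and 20.3 FPKM with siNC. It fell to 92.2% of its siNC mean (log2 fold change -0.11, SE 0.0345, adjusted p = 0.0455), with groups that did not overlap. The call was lost without any 1 library other than siSox9 replicate 1 (adjusted p from 0.0819 to 0.152), on the median-centred scale (0.0884) and as TPM (0.334). In all, Itga2 did not pass in 10 of the 15 alternatives to the main fit. Itga1 was at 3.47 to 3.83 FPKM over the 6 libraries with overlapping groups (log2 fold change 0.01, adjusted p = 0.852). Itga10 and Itga11, the collagen receptors of cartilage and mesenchyme, were at 0.218 to 0.607 FPKM, and 33.5% of the exon bases of Itga10 are shared with another gene of the same strand.

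The remaining integrins are those of leukocytes and of alpha4 and alpha9. Of these, Itgb2, Itgal and Itgax were tested and did not pass, and the others were under the 1 FPKM mean and were not tested. Itgb2, the beta chain common to leukocyte integrins, was at 5.39 to 5.71 FPKM with siNC and at 5.81 to 6.51 FPKM with siSox9, groups that did not overlap (log2 fold change 0.13, 95% confidence interval 0.01 to 0.24, adjusted p = 0.0941). Its partners Itgal and Itgax overlapped between the groups, at 2.02 to 2.46 and 4.08 to 4.90 FPKM (adjusted p = 0.9 and 0.414). Itgam was at 0.305 to 0.425 FPKM and is listed under a second identifier at 0 reads in all 6 libraries. It shares 68.7% of its exon bases with an overlapping gene, so its level is uncertain. Itgad had 3 reads in siNC replicate 2 and 0 in the other libraries. Itgae, the chain of intraepithelial lymphocytes, had 5 to 16 reads. Itga4 and Itga9, which bind VCAM-1, fibronectin and tenascin-C, were at 0.135 to 0.634 FPKM. Itgb7 was at 0.184, 0.172 and 0.183 FPKM with siSox9 and at 0.117, 0.136 and 0.0587 FPKM with siNC, with siSox9 on the high side. The 9 leukocyte markers summed to 122 to 134 FPKM with siSox9 and 110.5 to 118 FPKM with siNC. This difference was that of Lyz2, a macrophage lysozyme (log2 fold change 0.21, adjusted p = 0.0175). Lyz2 was the 1 of 6 tested that passed (16.7%, against 30.4% of all genes). Without Lyz2 the sums overlapped, at 41.5 to 46.4 FPKM and 42.1 to 45.1 FPKM, with 4 of the 8 means higher and 4 lower with siSox9. Cd3e and Ms4a1 of lymphocytes were at or near 0. The part of leukocytes in the level of Itgb2 was not tested, and in bulk RNA more cells of a type and more RNA per cell cannot be told apart.

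To set the laminins and integrins among the genes they work with, 5 lists of 96 genes in all were taken from textbook knowledge. The lists were chosen with earlier results of these data known, so their share of calls is a description and not a test. Of the 96 genes, 81 were tested and 38 passed (46.9%, against 30.4% of all genes), 21 higher and 17 lower. The median log2 fold change of the 81 was 0.011. Without siSox9 replicate 2, 23 partner genes and 2431 of all genes passed. Without siNC replicate 3, 24 partner genes and 2599 of all genes did, where 3650 of all genes passed with all libraries.

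Of 20 ligands of integrins other than laminins, 14 were tested, 3 rose and 4 fell (50.0% of those tested, against 30.4% of all genes). Tnc and Fn1 fell most. Fn1, fibronectin, the ligand of alpha5 beta1, was at 958, 965 and 937 FPKM with siSox9 and at 1642, 1542 and 1583 FPKM with siNC (log2 fold change -0.74, SE 0.0358, adjusted p = 5.94e-05). Tnc, tenascin-C, a matrix protein of injured tissue bound by alphaV beta3 and alpha9 beta1, was at 213, 216 and 197 FPKM with siSox9 and at 368, 341 and 347 FPKM with siNC (-0.76, SE 0.0467, adjusted p = 0.000103). For both, all 3 siSox9 libraries lay below all 3 siNC libraries, as for Itga5 and Itgb3 in the plot of values by library. The 3 ligands that rose went the other way. Ltbp1, which holds latent TGF-beta in the matrix, rose by 0.34 on the log2 scale (adjusted p = 0.00258). Thbs1, thrombospondin-1, rose from a mean of 1258 FPKM with siNC to 1535 FPKM with siSox9 (log2 fold change 0.29, adjusted p = 0.00103). Spp1, osteopontin, rose from a mean of 637 to 772 FPKM (0.28, adjusted p = 0.00401).

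Of 22 basement membrane genes that are not laminins, 17 were tested, 8 rose and 2 fell, with a median of 0.119. Those that passed were 58.8% of the genes tested, against 30.4% of all genes. The largest rises were of Ntn4, netrin-4, which binds laminin gamma chains (log2 fold change 0.44, adjusted p = 0.000298), and of Col4a3 (0.41, adjusted p = 0.000914) and Col4a5 (0.34, adjusted p = 0.00135), which form the collagen IV network of the glomerular and distal tubule basement membranes. Ntn4 was at 21.5, 22.2 and 22.3 FPKM with siSox9 and at 16.6, 15.8 and 15.4 FPKM with siNC, and Col4a3 was at 71.3, 72.6 and 66.5 against 55.1, 50.8 and 51.4 FPKM. The 2 genes that fell were Nid1, which links laminin gamma1 to collagen IV (-0.33, adjusted p = 0.000836), and Npnt, the alpha8 beta1 ligand (-0.26, adjusted p = 0.00182). They are named because the count is small.

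Of 8 hemidesmosome and tetraspanin genes, 7 were tested, 1 rose and 2 fell (42.9% of those tested, against 30.4% of all genes). Cd151, a tetraspanin that binds alpha3 beta1 and alpha6 integrins, was at 85.7, 88.8 and 92.1 FPKM with siSox9 and at 112, 111 and 110.0 FPKM with siNC (log2 fold change -0.32, adjusted p = 0.000688). Cd82, another tetraspanin, fell by 0.27 on the log2 scale (adjusted p = 0.0049), and Dst, the plakin that ties hemidesmosomes to keratin, rose by 0.24 (adjusted p = 0.00724).

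Of 30 integrin activators and adaptors, 27 were tested, 6 rose and 6 fell (44.4% of those tested, against 30.4% of all genes). The largest changes were falls of Lims2 (PINCH-2, of the integrin-linked kinase complex, log2 fold change -0.50, adjusted p = 0.00046), Tns2 (tensin-2, -0.35, adjusted p = 0.00871) and Parvb (beta-parvin, -0.24, adjusted p = 0.0112). All 16 adhesion kinases and scaffolds were tested, and 3 rose and 3 fell (37.5%, against 30.4% of all genes). Cav1, caveolin-1, rose by 0.40 on the log2 scale (adjusted p = 0.000272), Bcar1, the scaffold p130Cas, by 0.36 (adjusted p = 0.000723) and Csk, the kinase that restrains Src, by 0.23 (adjusted p = 0.0189).

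**Figure D5:**
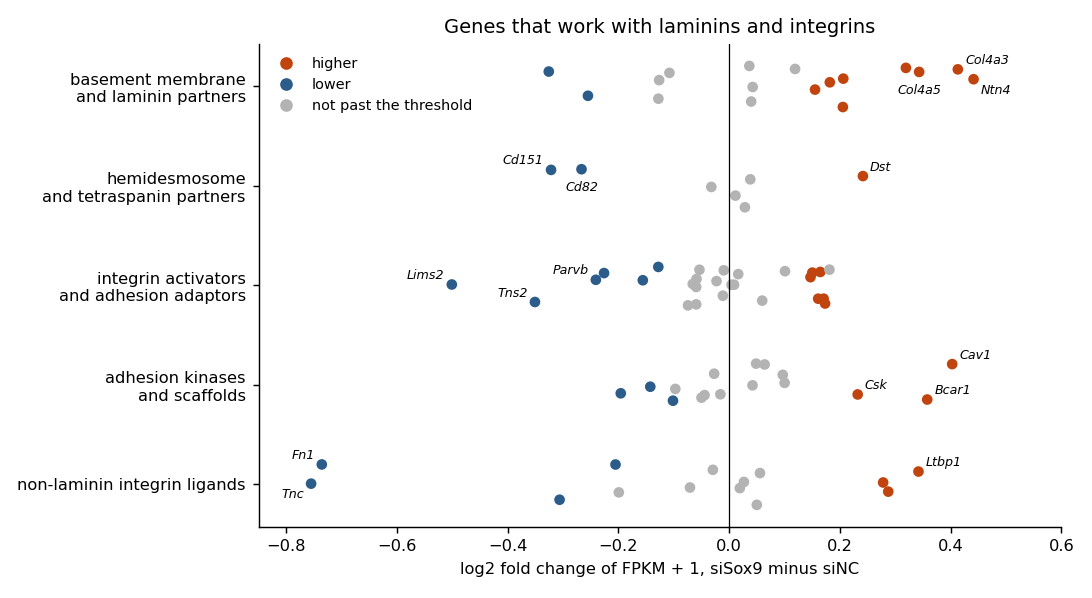
Log2 fold change of FPKM + 1, siSox9 minus siNC, of the 81 partner genes tested, by list; each point is a gene, spread up and down within its list only so that points do not cover each other, and the 3 largest changes past the threshold in each list are named. Fn1 and Tnc lie farthest to the left and Ntn4, Col4a3 and Cav1 farthest to the right.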

How the data were processed

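RNA-Seq of TECs after H/R gave 6 libraries, 3 with siSox9 and 3 with siNC. The values, as the authors deposited them, are FPKM with no further scaling between libraries. Per the labels, the processing used Bowtie2 2.2.3, HISAT2 2.1.0 and TopHat2 with the mm9 build; the counting tool and whether it used strand are not given in the sources used here. Gene positions in the table are those of GRCm38: of 30246 genes in GENCODE M21, 93.3% had the same position. The columns used as siSox9 are named for a further siRNA beside siNC, and the labels hold no siRNA besides siNC and siSox9.

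Library totals were recovered as whole reads with GENCODE M21 exon lengths, and the values of 27941 genes were whole numbers, to 0.02 reads, in each library. No 2 libraries were copies of each other: read counts differed by more than sampling noise in every pair (mean chi-square per gene 1.86 to 6.74 within groups, 15.9 to 19.2 between). Intervals and read counts cover the spread between libraries and counting only.

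Differences were tested with limma 3.58.1 (lmFit, then eBayes with its trend option, R 4.3.3) on log2(FPKM + 1), with a mean of at least 1 FPKM, over all genes. The fit was also run on simulated data without deviations of whole libraries, so that run cannot show how such deviations act here. Alternatives were a pseudocount of 0.1, no filter, at least 5 FPKM, the replicate block, no trend, quantile normalization, median centring, TPM, each library left out, and limma voom on the recovered reads, which was added after the data were seen. Members and partner lists were chosen with earlier results of these data known. Members past the threshold, or with a mean of at least 10 FPKM, are given in every library; of each partner list, the 3 largest changes past the threshold are named, with a few others chosen after their values were seen. Partner genes Ccn1 and Ccn2 were matched by identifier, and Vtn and Lum were not analysed here. Values of 1 member and 2 marker genes are not reported here.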

Additional observations from a re-analysis of the deposited data

How the results depend on the processing

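Of the 12 laminin and integrin genes past the threshold, 6 passed in each of the alternatives run for them (Lamb1, Itga7, Itga5, Itgb3, Itgb5 and Itgb6) and 6 did not in at least 1. Of 177 values of these genes under the 15 alternatives, 141 stayed on their side of the threshold, 36 did not pass and 0 turned in direction. The log2 fold change of Itga5 ranged from -0.73 to -0.66 and that of Itgb3 from -0.68 to -0.58. Of the 9 genes not past the threshold, 2 passed in 1 alternative each, Lamc1 with limma voom (adjusted p = 0.0413) and Itgb2 with quantile-normalized values (adjusted p = 0.0445).

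With 1 library left out at a time, 2431 to 3653 of all genes, 8 to 10 members and 23 to 37 partner genes passed, where 3650, 12 and 38 did with all libraries. Partner genes numbered 25 with no filter and 25 with TPM, where 2700 and 2571 of all genes passed. With no filter, 28122 genes were tested. The causes were not tested.

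With the replicate block, 3262 genes, 10 members and 35 partner genes passed. No shared deviation by replicate number was seen: the deviations of same-numbered libraries correlated at 0.0649, -0.0504 and 0.00784. The highest correlation was that of siSox9 replicate 3 with siNC replicate 2 (0.0896). The labels do not say whether same-numbered libraries were prepared together, and these correlations cannot show it.

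The 16 genes that were not tested were left out by the filter of 1 FPKM. Of the 13 with recovered reads above 0, 12 had 5 to 124 reads in every library.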

Other observations

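The markers of other cell types moved with the groups to different degrees, and their part in the levels of the laminins and integrins was not tested. Of the 10 tubule markers tested, 2 passed, both higher with siSox9 and with no overlap between the groups. Cdh16, a kidney cadherin, was at 129, 130 and 130 against 101, 98.1 and 104 FPKM (log2 fold change 0.36, adjusted p = 0.000307). Krt7, a keratin of the collecting duct and of simple epithelia, was at 236, 235 and 237 against 183, 186 and 184 FPKM (0.35, adjusted p = 0.000168). The other 8 did not pass, and the lowest log2 fold change was that of Pax2 (-0.17, adjusted p = 0.0937). Over all 13 tubule markers, 7 means were higher and 6 lower with siSox9, so the rise of Cdh16 and Krt7 was not shared by the list. Both of the 2 podocyte markers tested passed as lower, where 17.6% of all genes did. Podxl, podocalyxin, was lower by 0.57 on the log2 scale (adjusted p = 0.000158) and Synpo, synaptopodin, by 0.33 (adjusted p = 0.00636). Nphs1, which defines podocytes, was at 0 in all 6 libraries. None of the 3 fibroblast and smooth muscle markers tested and not the 1 endothelial marker tested passed in limma, where 30.4% of all genes did. The fibroblast and smooth muscle markers summed to 661 to 715 FPKM with siSox9 and 712 to 751 FPKM with siNC, nearly all of it Acta2, and the endothelial markers to 3.01 to 3.20 and 3.30 to 4.19 FPKM.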
